A study of Mus musculus with 6 samples.

Results

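Smooth muscle contractile genes were examined in the whole skin of mice with the YAP2-5SA-∆C transgene. The group holds 10 genes, *Acta2*, *Actg2*, *Tagln*, *Myl9*, *Cnn1*, *Myh11*, *Smtn*, *Synpo2*, *Lmod1* and *Myocd*, which were chosen because they are made in the smooth muscle of the arrector pili and of vessel walls (the choice was made by function, with earlier results of these libraries known). Each name was matched to 1 Ensembl identifier in the GENCODE M21 annotation of GRCm38, and all 10 are among the 26579 genes of the count table and among the 15102 tested, each with 1 CPM (a count scaled to the size of its library) or more in 3 or more libraries. RNA-Seq was carried out on whole biopsies of dorsal neck skin from 3 wild type females and from 3 female YAP2-5SA-∆C (transgenic) littermates, all at P33, which is postnatal day 33. The transgenic mice carry a mildly activated YAP in basal keratinocytes that express *Krt5* and *Krt14*, its expression in smooth muscle was not measured here, and the wild type mice do not carry it. The transgenic mice were taken when the first outward signs of the skin phenotype could be seen.

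Smooth muscle cells contract when calcium activates myosin light chain kinase. The kinase phosphorylates the regulatory light chain, and the smooth muscle myosin then pulls on actin filaments to which calponin, transgelin and smoothelin bind. Most of the genes of this apparatus are switched on by serum response factor with its partner myocardin, which bind a DNA element known as the CArG box. In skin the apparatus is found in the arrector pili muscle that erects the hair, in the walls of arteries and veins and in pericytes, and some of its genes, *Acta2* among them, are also used by the dermal sheath of the hair follicle and by myofibroblasts.

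Between 11225705 and 19505036 reads were counted per library, the fewest in wild type replicate 3. On a multidimensional scaling plot, the library of transgenic replicate 2 was far from all others, at 2.24 on the first dimension against 0.26 and 0.30 for the other 2 transgenic libraries and -1.201 to -0.51 for the wild type. The endogenous *Yap1* stood at 131 ± 9.45 CPM in the wild type group against 136 ± 7.32 CPM in the transgenic group (SD, n = 3 each), and it is not known whether transgene reads were counted on it. Counts were tested with edgeR's quasi-likelihood test over all 15102 genes, and adjusted p-values are Benjamini-Hochberg values over those genes with a threshold of 0.05. The p-values measure the spread between these 6 mice. In bulk skin, fewer smooth muscle cells and less RNA per smooth muscle cell cannot be told apart.

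None of the 10 genes passed the adjusted threshold in edgeR's quasi-likelihood test, in which 1.91% of all genes were called (1.44% higher and 0.464% lower). The estimates were below 0 for 5 genes and above 0 for 5. At an unadjusted p under 0.05, 4 genes were lower in YAP2-5SA-∆C skin (*Tagln*, *Smtn*, *Acta2* and *Myl9*) and 1 was higher (*Myh11*), against 13% lower and 13.3% higher among all genes tested. For the same 5 genes the values of the genotypes did not overlap, in the same directions, where 18.3% of all genes lay wholly lower and 15.5% wholly higher, 33.8% in all. This separation depended on the scaling. With library totals alone in place of TMM factors, 1 gene lay wholly lower and 0 wholly higher, against 11.9% and 15.7% of all genes under that scaling. In wild type replicate 3, 5.27% of all counts fell on 1 gene (ENSMUSG00000045999), against 0.0634% to 0.288% in the other libraries. That library had the lowest TMM factor, 0.938. The part of this gene in the difference between the scalings was not tested. The median log2 fold change of the 10 genes was -0.001, beside -0.01 over all genes tested. Other tests gave other calls. edgeR's likelihood-ratio test passed *Tagln* (adjusted p = 0.0160), with 10.4% of all genes called (4.87% lower and 5.52% higher). DESeq2 passed *Tagln* (adjusted p = 0.00661), *Smtn* (0.0190), *Acta2* (0.0303) and *Myh11* (0.0336), with 10.5% of all genes called, and voom passed none of them, with 1.65% called.

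**Figure D1:**
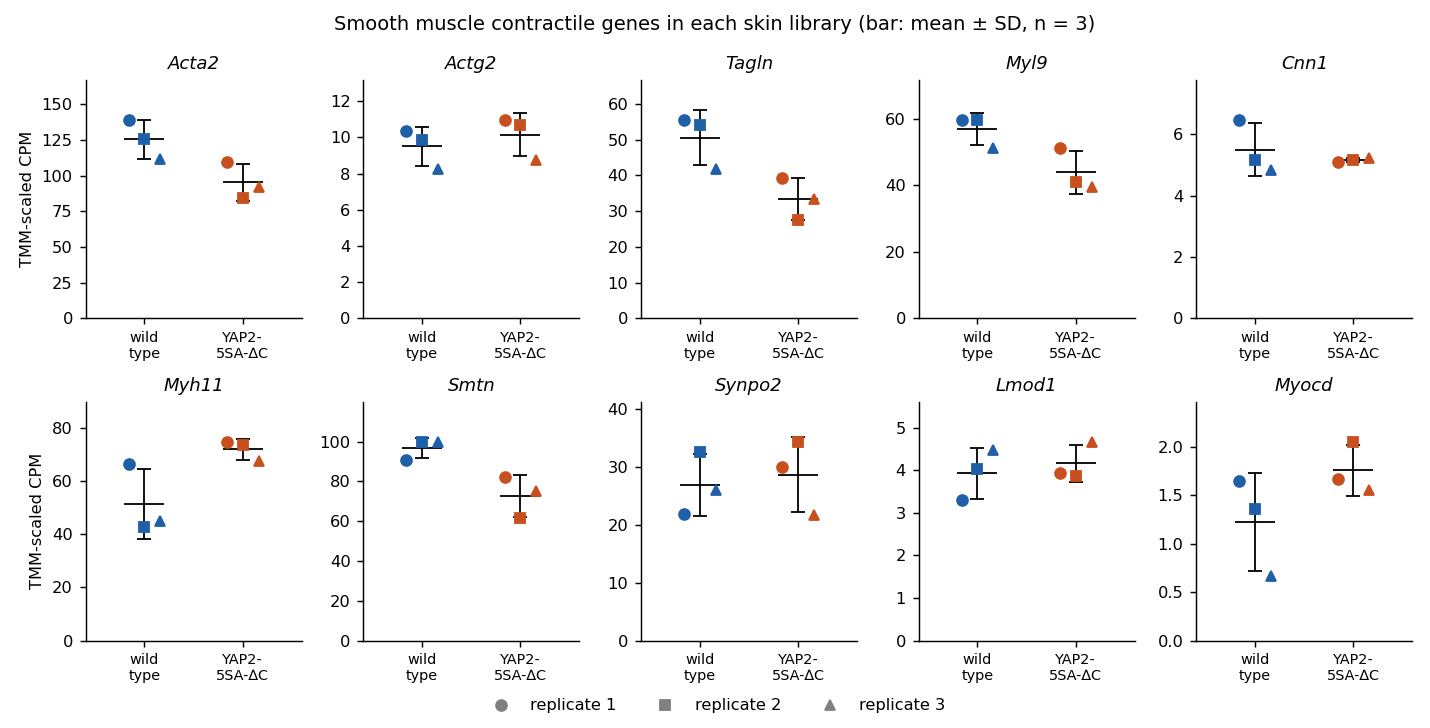
TMM-scaled CPM of each smooth muscle contractile gene (vertical axes from 0, each with its own scale) in the 3 wild type (blue) and 3 YAP2-5SA-∆C (orange) libraries, with the mean ± SD. With this scaling the orange points lie below the blue ones for *Acta2*, *Tagln*, *Myl9* and *Smtn* and above them for *Myh11*, and the groups overlap for the other 5 genes.

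*Acta2* (ENSMUSG00000035783, chromosome 19 of GRCm38 from 34241090 to 34255590, minus strand) encodes the smooth muscle alpha-actin of the thin filament. It had 139, 126 and 112 CPM in wild type replicates 1, 2 and 3, and 109.6, 84.2 and 92.2 CPM in YAP2-5SA-∆C replicates 1, 2 and 3. All transgenic libraries were below all wild type libraries, although the highest transgenic value lay only just under the lowest wild type value. The log2 fold change was -0.40 (standard error 0.12, 95% interval -0.68 to -0.12), an estimate 0.759 times the wild type level, with an adjusted p = 0.0982 in edgeR's quasi-likelihood test.

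*Actg2* (ENSMUSG00000059430, chromosome 6 from 83512905 to 83536265, minus strand) encodes the gamma-actin of smooth muscle, which is known best from the gut. Its values were 10.4, 9.87 and 8.26 CPM in wild type against 10.99, 10.7 and 8.78 CPM in transgenic skin, and the groups overlapped throughout. Its estimate was 0.09 on the log2 scale, with a 95% interval from -0.22 to 0.41, so that a fall in *Actg2* of the size estimated for *Acta2* lies outside its interval. The 2 smooth muscle actins had estimates of opposite sign in the same libraries, though that of *Actg2* ran from 0.014 without wild type replicate 3 to 0.19 without YAP2-5SA-∆C replicate 3.

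*Tagln* (ENSMUSG00000032085, chromosome 9 from 45929619 to 45936058, minus strand) encodes transgelin or SM22-alpha, an actin-binding protein and an early marker of smooth muscle. It had 55.6, 54.2 and 41.8 CPM in the wild type libraries and 39.3, 27.4 and 33.3 CPM in the YAP2-5SA-∆C libraries. The groups did not overlap, and the lowest value was that of YAP2-5SA-∆C replicate 2. This was the largest estimated difference of the group, a log2 fold change of -0.60 (standard error 0.16, 95% interval -0.97 to -0.23) with an adjusted p = 0.0768 (edgeR, quasi-likelihood). Without YAP2-5SA-∆C replicate 2 the log2 fold change was -0.46. Of the 1988 exonic bases of *Tagln*, 1241 lie opposite exons of the antisense gene *Gm48529* and 108 opposite exons of *Pcsk7*, and the strand setting of the counting is not given in the sources used here. *Gm48529* is not in the count table, and whether the counting annotation held it is not known. Reads opposite a counted gene such as *Pcsk7* cannot be assigned if strand was ignored. *Pcsk7* itself differed by 0.05 on the log2 scale, with a standard error of 0.06.

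*Smtn* (ENSMUSG00000020439, chromosome 11 from 3517523 to 3540612, minus strand) encodes smoothelin, which is found on the filaments of contractile smooth muscle. Its values were 91.0, 99.7 and 99.997 CPM in wild type against 82.1, 61.4 and 75.1 CPM in transgenic skin. Among the 5 genes whose groups separated, the gap between the genotypes was widest here in CPM. Transgenic skin differed by -0.41 on the log2 scale (standard error 0.11, adjusted p = 0.0784 in edgeR's quasi-likelihood test), and without YAP2-5SA-∆C replicate 2 it was -0.28. The antisense gene *Gm11946* covers 714 of the 4380 exonic bases of *Smtn* and had 0.198 CPM in wild type against 0.171 CPM in transgenic skin, too few to be tested.

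*Cnn1* (ENSMUSG00000001349, chromosome 9 from 22099216 to 22109630, plus strand) encodes calponin 1, which binds actin and slows the myosin ATPase. It had 6.47, 5.17 and 4.84 CPM in wild type against 5.11, 5.17 and 5.23 CPM in transgenic skin. The transgenic values all lay within the wild type range. A log2 fold change of -0.09 was estimated (95% interval -0.43 to 0.24), and it was 0.05 without wild type replicate 1.

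The motor and its light chain differed in sign. *Myh11* (ENSMUSG00000018830, chromosome 16 from 14194535 to 14291372, minus strand) encodes the smooth muscle myosin heavy chain, the most specific marker of the lineage. It had 66.5, 42.5 and 44.8 CPM in the wild type libraries and 74.7, 73.4 and 67.3 CPM in the YAP2-5SA-∆C libraries. Wild type replicate 1 stood close to the transgenic values and well above the other wild type libraries, so the separation rests on a narrow gap. The log2 fold change was 0.49 (standard error 0.17, 95% interval 0.09 to 0.88), 1.40-fold higher in the estimate, with an adjusted p = 0.130 in edgeR's quasi-likelihood test. Without wild type replicate 1 the log2 fold change was 0.72 and the adjusted p = 0.0355 in the same edgeR test. When wild type replicate 2 was left out it was 0.37 (adjusted p = 0.316, edgeR), and when replicate 3 was, 0.41 (adjusted p = 0.300, edgeR). The unadjusted p was above 0.05 in both of these fits, at 0.0738 and 0.0715 in edgeR, and without YAP2-5SA-∆C replicate 1, at 0.0511.

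*Myl9* (ENSMUSG00000067818, chromosome 2 from 156775420 to 156781658, plus strand) encodes the regulatory light chain that the kinase phosphorylates, and many non-muscle cells make it too. Its values were 59.6, 59.8 and 51.4 CPM in wild type against 51.3, 40.9 and 39.5 CPM in transgenic skin. YAP2-5SA-∆C replicate 1 and wild type replicate 3 were nearly equal, and the groups only just failed to overlap. For *Myl9* the log2 fold change was -0.37 (standard error 0.12, 95% interval -0.65 to -0.10), with an adjusted p = 0.106 in edgeR's quasi-likelihood test. The unadjusted edgeR p was 0.0504 without wild type replicate 2 and 0.0508 without YAP2-5SA-∆C replicate 3.

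*Synpo2* (ENSMUSG00000050315, chromosome 3 from 123076519 to 123236149, minus strand) encodes myopodin, an actin-bundling protein of smooth and striated muscle. It had 21.9, 32.6 and 26.0 CPM in wild type against 30.1, 34.4 and 21.7 CPM in transgenic skin. The spread within each genotype was larger than the difference of the means. The estimate was 0.10 on the log2 scale (95% interval -0.38 to 0.57), and it changed sign to -0.03 without wild type replicate 1 and to -0.04 without YAP2-5SA-∆C replicate 2.

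*Lmod1* (ENSMUSG00000048096, chromosome 1 from 135324807 to 135368065, plus strand) encodes leiomodin 1, which nucleates actin filaments in smooth muscle. Its values were 3.29, 4.02 and 4.46 CPM in wild type against 3.94, 3.88 and 4.67 CPM in transgenic skin, with overlap. The estimate was 0.09 on the log2 scale (95% interval -0.29 to 0.48), and without wild type replicate 1 it was -0.02.

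*Myocd* (ENSMUSG00000020542, chromosome 11 from 65176561 to 65269989, minus strand) encodes myocardin, the coactivator that works with serum response factor. It was counted with 30, 26 and 7 reads in the wild type libraries and 30, 35 and 25 reads in the YAP2-5SA-∆C libraries, which is 1.65, 1.36 and 0.665 CPM against 1.67, 2.06 and 1.56 CPM. At this depth counting error alone is wide, and the 7 reads of wild type replicate 3 have an exact 95% Poisson interval from 2.81 to 14.4, which covers counting error only. The log2 fold change was 0.47 with a 95% interval from -0.27 to 1.199, an interval that spans both directions. The estimate was 0.24 when wild type replicate 3 was left out and 0.72 when replicate 1 was.

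**Figure D2:**
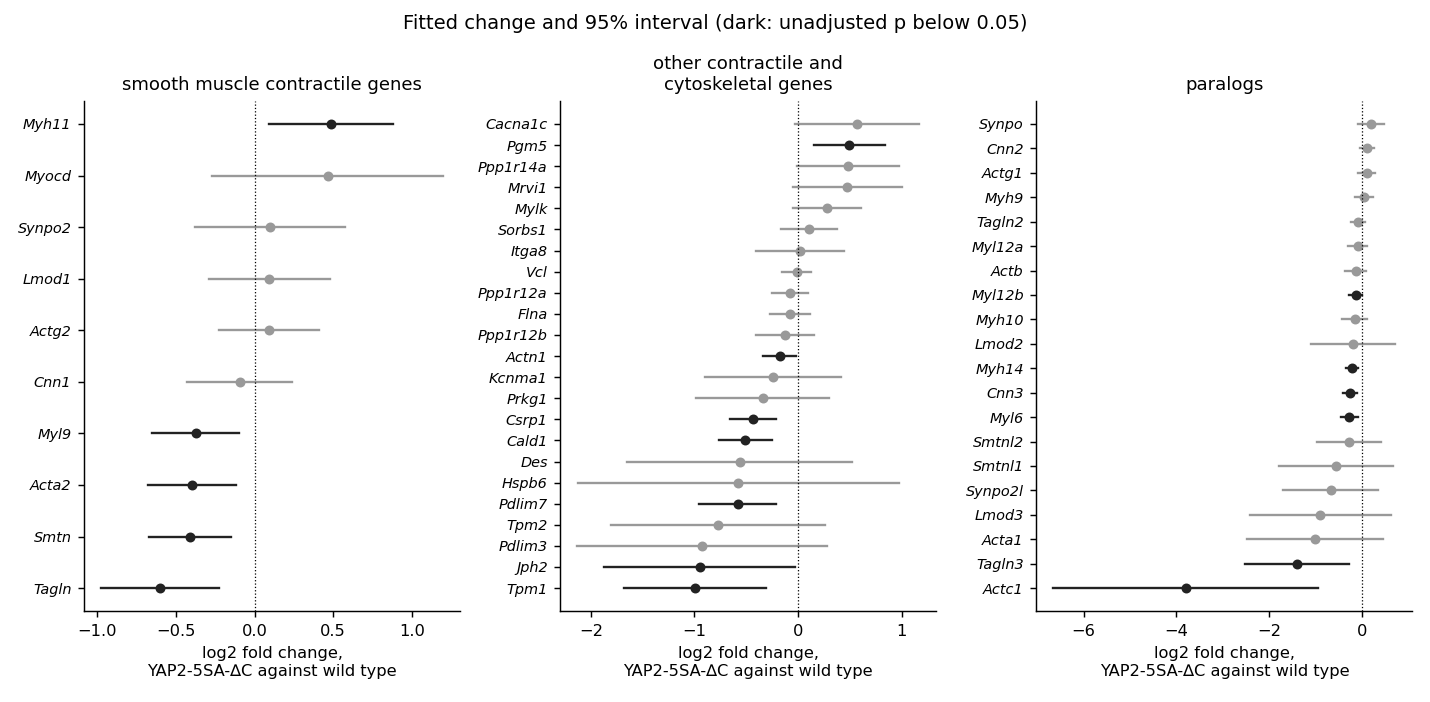
Fitted log2 fold change of YAP2-5SA-∆C against wild type skin (horizontal axis) with its 95% interval for the 10 smooth muscle contractile genes, the other contractile and cytoskeletal genes and the paralogs, in dark where the unadjusted p is under 0.05. *Tagln* is lowest of the 10 genes at -0.60 and *Myh11* highest at 0.49, and no gene in the 3 panels passed the adjusted threshold in edgeR's quasi-likelihood test.

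The estimates of *Myh11* and of *Acta2* and *Tagln* had opposite signs, and each gene was also set against *Myh11* within its own library. The ratio of counts per kilobase of exon does not depend on how libraries are scaled. *Tagln* had 3.20, 4.87 and 3.56 times the level of *Myh11* per kilobase in wild type against 2.01, 1.43 and 1.89 times in transgenic skin. *Acta2* had 7.25, 10.2 and 8.62 times the level of *Myh11* in wild type against 5.08, 3.97 and 4.74 times in transgenic skin. On the log2 scale the ratio differed by -1.12 for *Tagln*, -0.93 for *Smtn*, -0.91 for *Acta2*, -0.89 for *Myl9*, -0.59 for *Cnn1* and -0.42 for *Actg2*. For these 6 genes every transgenic library was below every wild type library (two-sided exact permutation test, p = 0.1 for each, the smallest p that 3 against 3 allow, and 0.15 after adjustment over the 9 ratios). For *Tagln*, *Smtn*, *Acta2* and *Myl9* this separation was fixed in advance, because each lay wholly lower and *Myh11* wholly higher in TMM-scaled CPM. Their p-values are therefore no further test. *Myh11* was itself high in the transgenic libraries, and 47.1% of all genes tested had a ratio to it that lay wholly lower and 1.01% wholly higher, so the count of 6 is to be read against that share.

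The ratios of *Synpo2*, *Lmod1* and *Myocd* to *Myh11* overlapped between the genotypes. Their differences were -0.42, -0.43 and 0.07 on the log2 scale (two-sided exact permutation tests, p = 0.3, 0.4 and 0.9). These differences depended on single libraries. With 1 library left out they ran from -0.76 to -0.16 for *Synpo2*, from -0.75 to -0.24 for *Lmod1* and from -0.21 to 0.31 for *Myocd*. The ends were reached without wild type replicates 1 and 2 for *Synpo2*, 1 and 3 for *Lmod1* and 3 and 2 for *Myocd*. Of the 6 genes above, *Actg2* moved most in proportion, to -0.27 without wild type replicate 2.

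**Figure D3:**
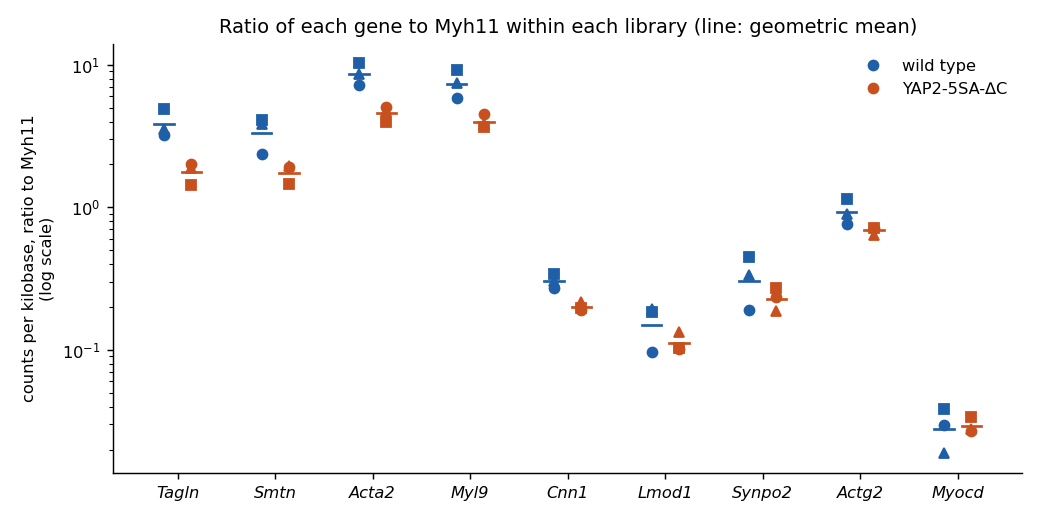
Ratio of each gene to *Myh11* in counts per kilobase of exon (vertical axis, log scale) in each wild type (blue) and YAP2-5SA-∆C (orange) library, with the geometric mean of each genotype as a line and the replicates by shape (circle 1, square 2, triangle 3). The orange points lie below the blue ones for *Tagln*, *Smtn*, *Acta2*, *Myl9*, *Cnn1* and *Actg2*.

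Levels between genes were compared as RPKM, the count scaled to exon length and library size. In wild type skin *Acta2* was highest, at 57.2 ± 6.30 RPKM, and *Myl9* was next at 49.0 ± 4.13 RPKM (SD, n = 3 each), with overlapping ranges. *Tagln* at 25.4 ± 3.83 RPKM and *Smtn* at 22.1 ± 1.17 RPKM followed, again with overlap between them but with none to *Myl9* above or to *Myh11* below. *Myh11* at 6.75 ± 1.74 RPKM and *Actg2* at 6.10 ± 0.707 RPKM overlapped, as did *Synpo2* at 2.05 ± 0.410 RPKM and *Cnn1* at 2.01 ± 0.315 RPKM. *Lmod1* at 0.994 ± 0.150 RPKM and *Myocd* at 0.190 ± 0.0785 RPKM closed the order. The order of the 10 means was the same in YAP2-5SA-∆C skin, from 43.4 ± 5.92 RPKM for *Acta2* to 0.274 ± 0.0408 RPKM for *Myocd*, but there the ranges of *Myh11* and *Actg2* no longer overlapped. The 4 genes with the highest levels in wild type were also the 4 whose TMM-scaled values lay wholly lower in YAP2-5SA-∆C skin.

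**Figure D4:**
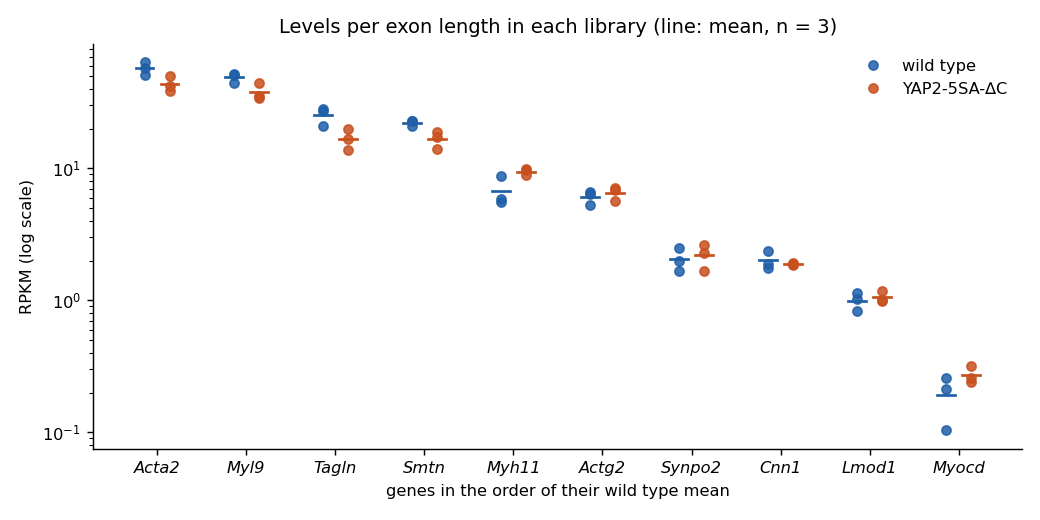
Level of each smooth muscle contractile gene in RPKM (vertical axis, log scale) in each wild type (blue) and YAP2-5SA-∆C (orange) library, ordered by the wild type mean, with the mean of each genotype as a line. The levels span from 57.2 RPKM for *Acta2* to 0.190 RPKM for *Myocd* in wild type, and the order of the means is the same in both genotypes.

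Near-identical family members can take each other's reads, so the transcripts were compared. None of the 10 genes shared an exact word of 75 bases, the read length, with a transcript of another gene in GENCODE M21, whereas 33.5% of the words of *Actg1* and 14.6% of those of *Myl12a* were shared. Over all families, 8 of 20 shares did not overlap between the genotypes, of which *Myh11* was the only one of a smooth muscle gene. The smooth muscle genes were a small share of some families and a large share of others. *Acta2* made up 3.51% ± 1.33 of the summed actin RPKM in wild type against 3.33% ± 0.210 in transgenic skin (SD, n = 3 each). The skeletal muscle actin *Acta1* made up 35.0% ± 18.3 of that sum in wild type and 24.1% ± 8.72 in transgenic skin. The share of *Acta2* therefore also moves with *Acta1*. *Myh11* made up 9.86% ± 1.54 of the 4 myosin heavy chains in wild type against 13.7% ± 0.594 in transgenic skin, with no overlap (two-sided exact permutation test, p = 0.1, 0.25 after adjustment over the 20 shares). *Tagln* made up 30.1% ± 3.16 of the transgelins in wild type against 25.2% ± 3.52 in transgenic skin, *Myl9* 22.6% ± 0.733 and 20.6% ± 2.58 of the light chains, and *Cnn1* 3.23% ± 0.400 and 3.25% ± 0.0619 of the calponins, all with overlap.

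Of the 20 paralogs, 0 passed the adjusted threshold in edgeR's quasi-likelihood test, while the likelihood-ratio test passed 2 (*Actc1* and *Tagln3*) and DESeq2 4 (these 2, *Cnn3* and *Myl6*). In the quasi-likelihood test 6 were lower and 0 higher at an unadjusted p under 0.05 (*Actc1*, *Tagln3*, *Myl6*, *Cnn3*, *Myh14* and *Myl12b*). Over all genes tested, 13% were lower and 13.3% higher at that p. The likelihood-ratio test called 10.4% of all genes and DESeq2 10.5%. The skeletal and cardiac actin genes *Acta1* and *Actc1* had log2 fold changes of -1.03 and -3.80 with wide standard errors of 0.62 and 1.21. *Actc1* had 0.439, 16.6 and 8.26 CPM in wild type against 1.28, 0.176 and 0.311 CPM in transgenic skin, so its groups overlapped. The cytoplasmic actins *Actb* and *Actg1* had log2 fold changes of -0.14 and 0.09, and the non-muscle heavy chains *Myh9* and *Myh10* of 0.03 and -0.16. The ubiquitous relatives of transgelin and calponin, *Tagln2*, *Cnn2* and *Cnn3*, had log2 fold changes of -0.09, 0.10 and -0.26. The third transgelin, *Tagln3*, had 10.9, 16.4 and 10.2 CPM in wild type against 5.44, 1.59 and 7.16 CPM in transgenic skin, a log2 fold change of -1.41 and a larger difference than that of *Tagln*. For the light chains *Myl6*, *Myl12a* and *Myl12b* the values were -0.28, -0.10 and -0.14, and for the heavy chain *Myh14* -0.22.

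Among 24 other genes of the contractile apparatus, its anchors and its signalling, 23 were tested and 0 passed the adjusted threshold, while 6 were lower and 1 higher at an unadjusted p under 0.05 in edgeR's quasi-likelihood test. The likelihood-ratio test passed 5 of them (*Tpm1*, *Cald1*, *Csrp1*, *Pdlim7* and *Jph2*) and DESeq2 passed 3 (*Cald1*, *Csrp1* and *Pdlim7*). Over all genes tested, 13% were lower and 13.3% higher at an unadjusted p under 0.05 in the quasi-likelihood test. The likelihood-ratio test called 10.4% of all genes and DESeq2 10.5%. *Cald1*, which encodes the thin filament protein caldesmon, differed by -0.51 on the log2 scale (standard error 0.11, adjusted p = 0.0576 in edgeR's quasi-likelihood test). *Csrp1*, a LIM protein that works with serum response factor, had -0.43, *Pdlim7* had -0.58 and *Tpm1*, which encodes a tropomyosin of all muscle types, had -0.99 on the same scale. *Pgm5*, which encodes aciculin of the adherens-type junctions of muscle, was the 1 gene higher, at 6.58, 6.63 and 6.55 CPM in wild type against 8.77, 11.2 and 7.91 CPM in transgenic skin (log2 fold change 0.50). For *Des*, the muscle intermediate filament desmin, the estimate was -0.56 on the log2 scale with a standard error of 0.46, and *Mylk*, the light chain kinase, had 0.28 with a standard error of 0.14. The median of the 23 genes was -0.18 on the log2 scale. The estimates of *Cald1* and *Tpm1* had the sign of *Tagln* and *Acta2*, and those of *Mylk* and *Pgm5* the sign of *Myh11*.

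The transcription factors and upstream signals gave 0 calls among 13 tested genes in edgeR's quasi-likelihood and likelihood-ratio tests and 1 in DESeq2 (*Rock2*). *Srf* had a log2 fold change of -0.11 (95% interval -0.30 to 0.08), and the myocardin-related coactivators *Mrtfa* and *Mrtfb* had 0.09 (95% interval -0.14 to 0.33) and 0.08 (95% interval -0.12 to 0.28). The wild type and transgenic values of these 3 factors overlapped. *Rock2*, a kinase that keeps the light chain phosphorylated, had the lowest p of the list with a log2 fold change of -0.36 (adjusted p = 0.0555, edgeR quasi-likelihood), and *Rhoa*, the GTPase that activates it, had 0.16.

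Promoter windows of 300 bases, from 250 before to 50 after the transcription start, were found in RefSeq (GRCm38.p6) for 6 of the 10 genes (*Acta2*, *Myl9*, *Cnn1*, *Smtn*, *Synpo2* and *Lmod1*). They were searched on both strands for the CArG box and for CATTCC, the core to which TEAD factors, the DNA-binding partners of YAP, are known to bind. These motifs do not overlap in the sites given. The strict CArG box was found in 1 of the 6 windows, that of *Myl9*, and in 1.63% of all 32851 windows. CATTCC was found in 3 of the 6, those of *Acta2*, *Smtn* and *Lmod1*, and in 14.7% of all windows. The matches are shown 5′ to 3′ on the strand of the gene with the motif in capitals, because 3 of them belong to genes whose genotypes did not overlap. A CATTCC on the other strand reads GGAATG.
Myl9 (CArG box, chr2:156775293-156775322, plus strand): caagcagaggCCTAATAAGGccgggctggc
Acta2 (chr19:34255504-34255529, minus strand): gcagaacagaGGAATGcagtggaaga
Smtn (chr11:3539499-3539524, minus strand): gtttgtggcaCATTCCggactttggc
Lmod1 (chr1:135324673-135324698, plus strand): aagattccctGGAATGtcctcaagtt
The motif of *Acta2* begins 146 bases and the CArG box of *Myl9* 161 bases before the transcription start on which RefSeq's window was placed. That start need not be the outermost end of the GENCODE gene, and the sites of *Acta2* and *Smtn* lie inside the gene bounds given above. A match is a string of letters and was not tested for binding, and *Lmod1*, which also holds one, had overlapping groups.

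The other cell types of the biopsy were read from marker lists, none of whose genes in the table was at 0 in all libraries. The 10 smooth muscle genes summed to 394 to 456 CPM in wild type against 344 to 409 CPM in transgenic skin. The 20 skeletal muscle markers summed to 2027, 9732 and 7963 CPM in wild type replicates 1, 2 and 3 and to 4898, 3211 and 1958 CPM in the YAP2-5SA-∆C replicates, with all 20 estimates below 0 (median log2 fold change -1.09) and 0 of 20 at an unadjusted p under 0.05 in edgeR's quasi-likelihood test. The likelihood-ratio test passed 1 of them after adjustment (*Pvalb*, log2 fold change -1.33) and DESeq2 passed 0. Striated muscle also makes *Synpo2*, *Des* and *Tpm1*. *Synpo2* was lowest in the wild type group in replicate 1 and in the transgenic group in replicate 3, the libraries with the least skeletal muscle RNA in each. The part of skeletal muscle in these values was not tested.

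The vessel markers had estimates mostly above 0 in the endothelial list and on both sides of 0 in the pericyte list. The 11 pericyte markers summed to 338 to 341 CPM in wild type against 341 to 396 CPM in transgenic skin, with *Pdgfrb*, the receptor that recruits mural cells, at 0.39 on the log2 scale (standard error 0.11) and *Rgs5*, a pericyte G-protein regulator, at 0.33 (standard error 0.11). The 12 endothelial markers summed to 159 to 175 CPM in wild type against 182 to 215 CPM in transgenic skin, without overlap, and their leading genes *Tie1*, *Esam* and *Pecam1* had log2 fold changes of 0.43, 0.31 and 0.32. None of these passed the adjusted threshold in edgeR's quasi-likelihood or likelihood-ratio test (0 of 9 and 0 of 12 tested), and DESeq2 passed *Pdgfrb* alone. At an unadjusted p under 0.05, 2 pericyte and 4 endothelial genes were higher and 1 pericyte gene, *Heyl*, was lower (log2 fold change -0.49). Over all genes tested, 13.3% were higher and 13% lower at that p. The median log2 fold change was -0.03 in the pericyte list, with 5 of 9 estimates below 0, and 0.18 in the endothelial list, with 2 of 12 below 0.

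Hair follicle markers had lower values in all transgenic libraries. The 14 hair shaft and inner root sheath genes in the table summed to 14351 to 18744 CPM in wild type and to 7512, 1503 and 9509 CPM in YAP2-5SA-∆C replicates 1, 2 and 3, and all 14 lay wholly lower. None of the 14 passed the adjusted threshold in edgeR's quasi-likelihood test, where 13 were lower at an unadjusted p under 0.05, while the likelihood-ratio test passed 13 and DESeq2 passed 1 (*Foxn1*). Over all genes tested, 18.3% lay wholly lower, and 13% were lower and 13.3% higher at that p. The likelihood-ratio test called 10.4% of all genes and DESeq2 10.5%. YAP2-5SA-∆C replicate 2, lowest in hair sum, was also lowest for *Acta2*, *Tagln* and *Smtn*. The order of the other libraries differed between genes. Wild type replicate 1 had the lowest hair sum and the lowest *Smtn* of its group but the highest *Acta2* and *Tagln*. YAP2-5SA-∆C replicate 1 was below replicate 3 in hair sum and above it in all 3 genes. The fibroblast list summed to 9796 to 13142 CPM in wild type against 12611 to 16347 CPM in transgenic skin, with 4 of 11 genes higher and 0 lower at an unadjusted p under 0.05 in edgeR's quasi-likelihood test. After adjustment 0 passed in that test and in the likelihood-ratio test, and DESeq2 passed 2 (*Col3a1* and *Lum*). Of 8 myofibroblast markers, *Fap* (-0.58), *Col8a1* (-0.63) and *Lrrc15* (-1.12) were lower and *Tnc* (0.81) and *Cthrc1* (0.62) higher at an unadjusted p under 0.05, on the log2 scale, with 0 past the adjusted threshold in edgeR's quasi-likelihood test. The likelihood-ratio test passed 4 of the 8 (*Col8a1*, *Tnc*, *Fap* and *Lrrc15*) and DESeq2 passed 3 (*Col8a1*, *Tnc* and *Fap*). The 9 adipocyte markers overlapped in their sums. Of 8 keratins and cornified envelope genes of a thickened epidermis, 4 rose past the adjusted threshold in edgeR's quasi-likelihood test, by 0.95 for *Krt14*, 2.85 for *Krt6b*, 2.24 for *Krt16* and 1.90 for *Sprr1b* on the log2 scale. The likelihood-ratio test and DESeq2 passed all 8, with *Krt5*, *Krt6a* and *Sprr2d* also higher. *Krt17* of the same list went the other way, with all transgenic values below the wild type values at -0.63 on the log2 scale (adjusted p = 0.128 in that test, 0.0374 in the edgeR likelihood-ratio test and 0.0181 in DESeq2). The part of these cell types in the smooth muscle values was not tested.

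**Figure D5:**
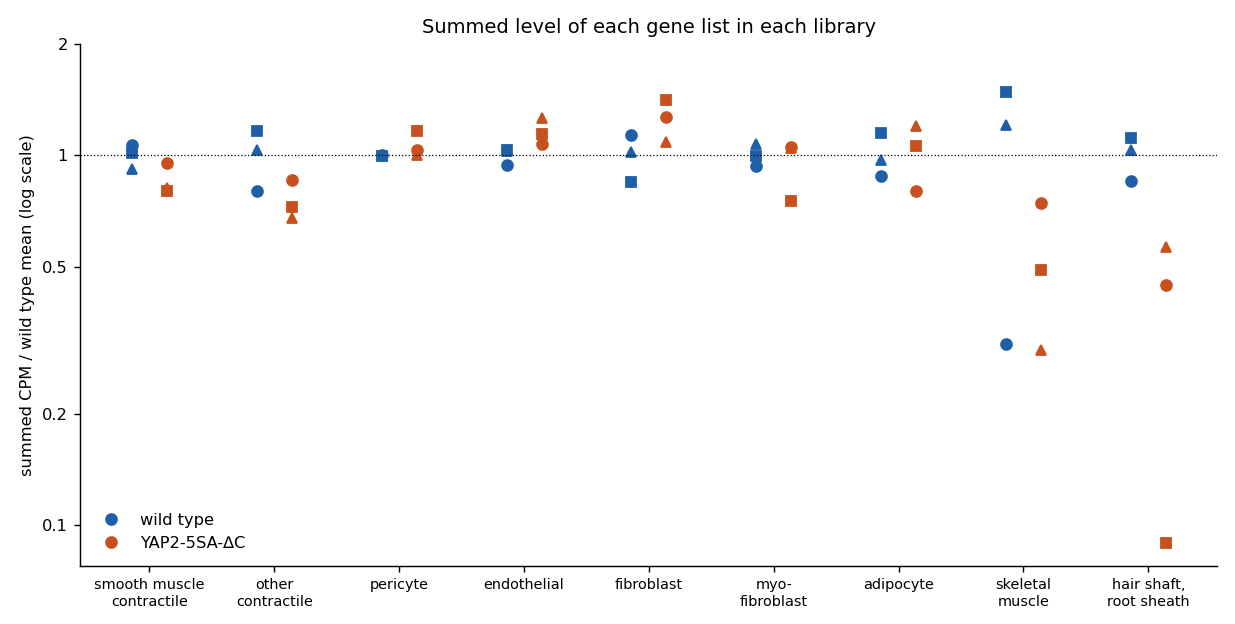
Summed CPM of each gene list in each library divided by its wild type mean (vertical axis, log scale) for wild type (blue) and YAP2-5SA-∆C (orange) skin, with the replicates by shape (circle 1, square 2, triangle 3). The smooth muscle sums (344 to 456 CPM) vary far less than those of skeletal muscle (1958 to 9732 CPM) and hair (1503 to 18744 CPM).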

How the data were processed

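The 6 libraries were analysed from raw read counts for Ensembl genes, as the authors deposited them. Per the labels and the study's methods, reads were mapped to GRCm38 with TopHat2 and Bowtie2 (2.1.0), and uniquely mapped reads were counted with HTSeq-count. The TopHat2 version is 2.0.12 in the submitters' processing notes, and the study's methods give an earlier one. The annotation release and strand setting are not given in the sources used here. The study's methods describe mRNA libraries and the labels a total RNA kit. Names, positions and exon lengths were taken from GENCODE M21, in which 558 identifiers are absent.

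Genes that reached 1 CPM in 3 or more libraries were scaled with TMM and tested with glmQLFit and glmQLFTest of edgeR 4.0.16 in R 4.3.3, with genotype as the only term. The standard error is the log2 fold change divided by the square root of F. The likelihood-ratio test and voom (limma 3.58.1) are the tests that the study's methods name, run here with other versions and another number of genes tested, and DESeq2 1.42.0 was a further alternative, with other scalings, filters, a replicate block and the omission of each library. The tests were tried on simulated counts. Ratios to *Myh11* used counts plus 0.5 per kilobase.

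The 10 genes and all gene lists were chosen with earlier results of these data known. All 10 genes are named, and of each other list at most 5 genes with the lowest p, genes of a count of 5 or fewer calls, and some named whatever their values. Outside this rule, *Cacna1c*, *Ppp1r14a*, *Mrvi1*, *Itga8*, *Krt5*, *Sprr2d* and *Krt17* were named after their values were seen. *Krt85* was not analysed here.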

Additional observations from a re-analysis of the deposited data

How the results depend on the processing

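Each of *Acta2*, *Actg2*, *Tagln*, *Myl9*, *Myh11*, *Smtn* and *Myocd* kept its direction in every alternative that tested it (17 each, 16 for *Myocd*, which at least 10 counts in every library removed). Signs changed for *Cnn1* (0.048), *Synpo2* (-0.03) and *Lmod1* (-0.017) when wild type replicate 1 was left out and for *Synpo2* (-0.038) when transgenic replicate 2 was, and the cause was not tested. Over all such omissions the log2 fold change ran from -0.16 to 0.048 for *Cnn1*, from -0.038 to 0.27 for *Synpo2*, from -0.017 to 0.19 for *Lmod1*, from 0.014 to 0.19 for *Actg2* and from 0.24 to 0.72 for *Myocd*. The likelihood-ratio test called 1 lower gene and DESeq2 called 3 lower and 1 higher, against 0 and 0 in edgeR's quasi-likelihood test. With each library left out in turn, 0 to 1 genes were called higher and 0 lower, and the median log2 fold change lay between -0.07 and -0.01. With library totals alone, 1 gene lay wholly lower and 0 wholly higher, against 4 and 1 with TMM, beside 11.9% and 15.7% of all genes with library totals and 18.3% and 15.5% with TMM. Over all genes, 288 calls became 1568 with the likelihood-ratio test, 1590 with DESeq2, 444 with library totals alone and 497 with no count filter. Leaving out transgenic replicate 2 gave 816 calls, wild type replicate 1 gave 142 and transgenic replicate 1 gave 86. In edgeR 0 were called when wild type replicate 2, wild type replicate 3 or transgenic replicate 3 was left out, with 2725, 2844 and 3692 genes at an unadjusted p under 0.05. The fit with the replicate number as a block called 0 of the 10 genes, 0 higher and 0 lower, with a median of 0.004, and 0 genes in all (edgeR, 2949 at an unadjusted p under 0.05). Same-numbered libraries had correlations of deviations of -0.33, -0.23 and -0.05, and 0 of 6 libraries correlated best with their own number, so the numbers were not taken to pair mice. Motif searches over all transcript starts were not run, because no genome was at hand. Counting error is widest for *Myocd*, with 7 to 35 counts in a library.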

Other observations

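Among the contractile and signalling genes outside the group, several of the estimates above 0 were close in size to that of *Myh11*. *Cacna1c*, which encodes the L-type calcium channel of smooth muscle, had 6.20, 4.13 and 3.42 CPM in wild type against 6.99, 8.28 and 5.36 CPM in transgenic skin. *Ppp1r14a*, an inhibitor of myosin phosphatase, had 2.08, 2.09 and 2.09 CPM in wild type against 2.89, 3.64 and 2.24 CPM in transgenic skin, with no overlap. *Mrvi1*, a partner of the cyclic GMP kinase in smooth muscle, had 4.99, 3.60 and 4.18 CPM in wild type against 5.83, 7.52 and 4.42 CPM in transgenic skin. Their log2 fold changes of 0.57, 0.49 and 0.48 did not pass edgeR's quasi-likelihood test after adjustment (adjusted p = 0.205, 0.195 and 0.225). In all of them YAP2-5SA-∆C replicate 2 was highest, the library in which *Tagln*, *Acta2* and *Smtn* were lowest. These 3 genes were chosen after their values were seen.

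*Itga8*, which encodes the integrin by which the arrector pili muscle attaches to the hair follicle, had 17.2, 14.2 and 11.4 CPM in wild type against 17.0, 12.2 and 14.2 CPM in transgenic skin. Its log2 fold change was 0.02 with a 95% interval from -0.41 to 0.44. It was named after its values were seen.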
